A study of Mus musculus with 6 samples.

Results

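Transforming growth factor beta (TGF-beta) signalling was followed through 10 genes in single cells of mouse pancreatic tumours: the ligands Tgfb1, Tgfb2 and Tgfb3, the related ligand subunit Inhba, the receptors Tgfbr1, Tgfbr2 and Tgfbr3, the latency proteins Ltbp1 and Ltbp2, and the induced matrix protein Tgfbi. The members were named by symbol, and each symbol was found as 1 row in every library, 10 of 32285 rows in all. The tumours came from KPC mice, a model in which Pdx1-Cre switches on engineered alleles, P53LSL.R172H/+ among them, in cells of the pancreatic lineage. In the treated group 3 mice received IPI-926, which blocks Smoothened and so Hedgehog signalling, at 40 mg/kg once a day by oral gavage. The control group of 3 mice received the vehicle, HPBCD at 5% w/w in water for injection. Both groups were dosed for 2 days, and tumours were taken 2 hours after the final dose, freed of healthy pancreas, digested with enzymes and made into 1 10x Single Cell 3' v3 library each. Digestion releases cell types unequally, which limits what shares of cells say about the intact tumour.

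TGF-beta is secreted as a latent complex, in which the mature dimer stays wrapped in its own propeptide. Ltbp proteins bind that propeptide and tether the complex to the matrix, and integrins or proteases free the ligand there. Free ligand binds Tgfbr2, a kinase that recruits and activates the kinase Tgfbr1, and Smad2 and Smad3 then carry the signal to the nucleus. Tgfbr3, or betaglycan, is a co-receptor with a short cytoplasmic tail that presents ligand, above all Tgfb2, and its shed form can bind ligand away. Inhba encodes the subunit whose dimer is activin A, a relative that signals through its own receptors to the same Smads. In pancreatic cancer TGF-beta restrains epithelial growth in some settings, drives the myofibroblastic state of fibroblasts and damps immune cells.

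The libraries held between 100810942 and 174929328 unique molecular identifiers (UMIs), and 49797 cells were kept, of which 42137 fell in 12 named classes and 7660 in clusters that stayed unnamed. At most 1 listed marker of a class was without a UMI in any library that entered. Clusters were named by these same markers and 1 UMI was enough, so this is no check of the names. IPI-926 replicate 3 stood apart. Of its 4022 fibroblasts, 1782 lay in a cluster led by Crabp1, Cthrc1 and Thbs2 and 2114 in a low-UMI cluster led by Crabp2 and Crabp1, with at most 1 cell of any other tumour between them, and only 49 lay outside clusters drawn over 95% from that library. The Crabp1 and Crabp2 clusters were named from 13 and 7 of the 15 fibroblast markers, and whether they hold another cell type was not tested. Of the 6314 macrophages and monocytes of that library, all but 211 likewise lay in clusters drawn over 95% from it. In the same library the summed level of the 15 fibroblast markers in neutrophils was 2096 CPM, UMIs of a gene scaled to a common total of the class in the library, against 109.6 to 699.7 CPM in neutrophils of the other 5 libraries. A pair of unnamed clusters matters below. One of 1232 cells carried 6 ductal markers, with 741 of its cells from IPI-926 replicate 1, and one of 948 cells carried 10 fibroblast markers but had the mesothelial gene Wt1 among its leading genes, with 559 of its cells from vehicle replicate 1. The Hedgehog readout Gli1 stood at 0.414, 1.68 and 0.168 scaled CPM in IPI-926 fibroblasts, against 10.4, 10.8 and 12.04 scaled CPM in vehicle fibroblasts, though its adjusted p was 0.90 in the edgeR quasi-likelihood test. Any pair of libraries shared at most 59 cell barcodes. Tgfb2, Tgfb3, Inhba and Ltbp2 overlap an annotated gene on the opposite strand, and whether the counting used strand is not given in the sources used here.

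Levels are given as CPM of the UMIs summed over the cells of a class in a library with at least 20 such cells. Because the method counts transcript ends, levels are compared between cell types and libraries and not between genes. The classes came from clusters of these cells, with the 10 genes left out of the clustering, so the levels by class are a description with no test.

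**Figure D1:**
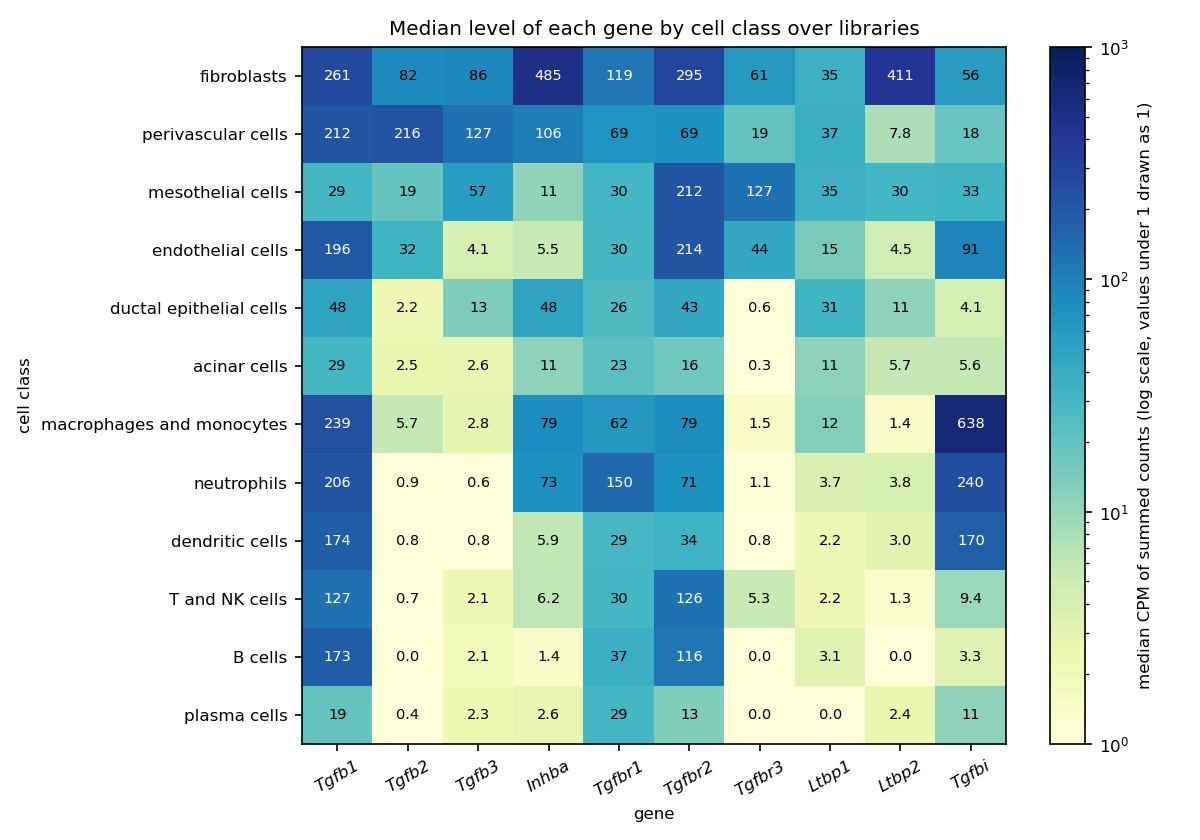
Median level of each of the 10 genes (columns) in each cell class (rows) over the libraries with at least 20 cells of the class, in CPM of summed counts on a log colour scale. Ltbp2 reached 411 CPM in fibroblasts and 30.1 CPM in mesothelial cells, the next class, while Tgfb1 was above 100 CPM in 8 classes.

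Tgfb1, the main immune and stromal isoform (ENSMUSG00000002603, GRCm38 chromosome 7, 25687002 to 25705077), was found at high levels in most stromal and immune classes and at low levels in epithelial, mesothelial and plasma cells. Fibroblasts held 426, 149 and 70.6 CPM in the IPI-926 tumours and 276, 246 and 288 CPM in the vehicle tumours. Macrophages and monocytes held 329, 241 and 231 CPM in the IPI-926 tumours and 228, 293 and 238 CPM in the vehicle tumours, a narrower range than in fibroblasts. From fibroblasts down to T and NK cells the medians of 8 classes ran from 261 to 127 CPM with overlapping ranges. The next class, ductal epithelial cells, lay apart from T and NK cells, with a median of 48.0 CPM. Its highest library, at 76.7 CPM, was below the lowest T and NK library at 109 CPM. That ductal library was still above the fibroblasts of IPI-926 replicate 3 at 70.6 CPM.

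Tgfb2 (ENSMUSG00000039239, chromosome 1, 186622792 to 186705989), which needs Tgfbr3 for efficient binding to Tgfbr2, was a transcript of the vessel wall and of fibroblasts. Perivascular cells held 386 and 226 CPM in IPI-926 replicates 1 and 2, and 122, 171 and 216 CPM in the vehicle tumours. Fibroblasts held 135, 91.5 and 32.6 CPM in the IPI-926 tumours and 123, 24.7 and 73.1 CPM in the vehicle tumours. These perivascular and fibroblast ranges overlapped. Ductal cells held only 1.198 to 4.04 CPM. In macrophages 1 subset led for the gene. A cluster led by Alox15, Marco and Fcna held 113 CPM, with 163 CPM in IPI-926 replicate 2 and 44.7, 74.1 and 71.5 CPM in the vehicle tumours. A smaller cluster with Cd5l, Fcna and Marco among its leading genes held 34.5 and 2.04 CPM in IPI-926 replicates 2 and 3 and 18.6 CPM in vehicle replicate 1. The largest macrophage cluster held at most 2.92 CPM in any library. The cluster led by Alox15, Marco and Fcna had 492 cells in IPI-926 replicate 2, and there macrophages held 57.1% of the tumour's Tgfb2 UMIs.

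Tgfb3 (ENSMUSG00000021253, chromosome 12, 86056745 to 86079041), an isoform of mesenchyme and wound repair, was also led by perivascular cells and fibroblasts. Its median was 127 CPM in perivascular cells, 86.5 CPM in fibroblasts and 56.6 CPM in mesothelial cells, and these 3 classes overlapped in range. Below them ductal cells had a median of 13.4 CPM, and no ductal library, the highest at 15.8 CPM, reached the lowest mesothelial library at 21.3 CPM. The genes whose levels most resembled Tgfb3 over 62 sums of a class in a library were Kirrel, Dact1 and the procollagen protease Adamts2, with Pearson r of 0.924, 0.921 and 0.921. For Tgfb2 they were Kank2, Hoxb2 and Tln2 with r of 0.906, 0.888 and 0.879. The sums of a class share its cell type and those of a library its depth, so these r are descriptions.

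Inhba (ENSMUSG00000041324, chromosome 13, 16011851 to 16031621) was highest in fibroblasts, with 696, 408 and 96.1 CPM in the IPI-926 tumours and 562, 133 and 601 CPM in the vehicle tumours. Both groups thus held tumours that differed by several fold. Single clusters carried much of it. The unnamed cluster led by Cxcl13, Pappa and Calca held 462 CPM, macrophages led by Mmp12 and Gpnmb held 348 CPM, and neutrophils led by Hcar2 and Acod1 held 342 CPM. Of those 883 neutrophils 682 came from IPI-926 replicate 1, and the cluster held 386 and 94.8 CPM in IPI-926 replicates 1 and 2 and 105 and 336 CPM in vehicle replicates 1 and 2. In the Mmp12 macrophages the IPI-926 tumours with at least 20 such cells, replicates 1 and 2, held 519 and 660 CPM, against 134, 175 and 34.3 CPM in the vehicle tumours. Those 2 groups of libraries do not overlap. With 2 libraries against 3 groups separate often, and the share of all genes that did so in this cluster was not counted. The cluster was singled out after its values were seen and no test was made within it. Neutrophils of IPI-926 replicate 3 held 0 Inhba UMIs, which allows up to 15.5 CPM.

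The class that supplied most of a ligand's transcripts changed from tumour to tumour. For Tgfb1, macrophages and monocytes supplied 34.8%, 51.0% and 42.4% of the UMIs in the IPI-926 tumours and 30.1%, 41.6% and 21.3% in the vehicle tumours. These means of 42.7% ± 8.1 and 30.99% ± 10.2 (SD, n = 3 each) gave p = 0.2 in a two-sided exact permutation test, where 3 libraries against 3 cannot go below 0.1. For Inhba the leading source was fibroblasts at 95.7% in IPI-926 replicate 3, macrophages at 68.1% in IPI-926 replicate 2, ductal cells at 53.7% in vehicle replicate 3 and unnamed clusters at 73.8% in vehicle replicate 1. Ductal cells supplied 3.01%, 7.01% and 0.458% of Inhba UMIs in the IPI-926 tumours and 13.5%, 11.7% and 53.7% in the vehicle tumours, groups that did not overlap (exact permutation p = 0.1). The named ductal class held only 66 cells of IPI-926 replicate 1. Another 741 cells of that library lay in the unnamed cluster of 6 ductal markers and are not in its ductal share. How often such shares separate over all genes was not counted. These shares follow the number of cells of each class recovered and their UMIs as well as the level per cell. Each rests on between 993 and 17686 UMIs of the ligand in a library.

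**Figure D2:**
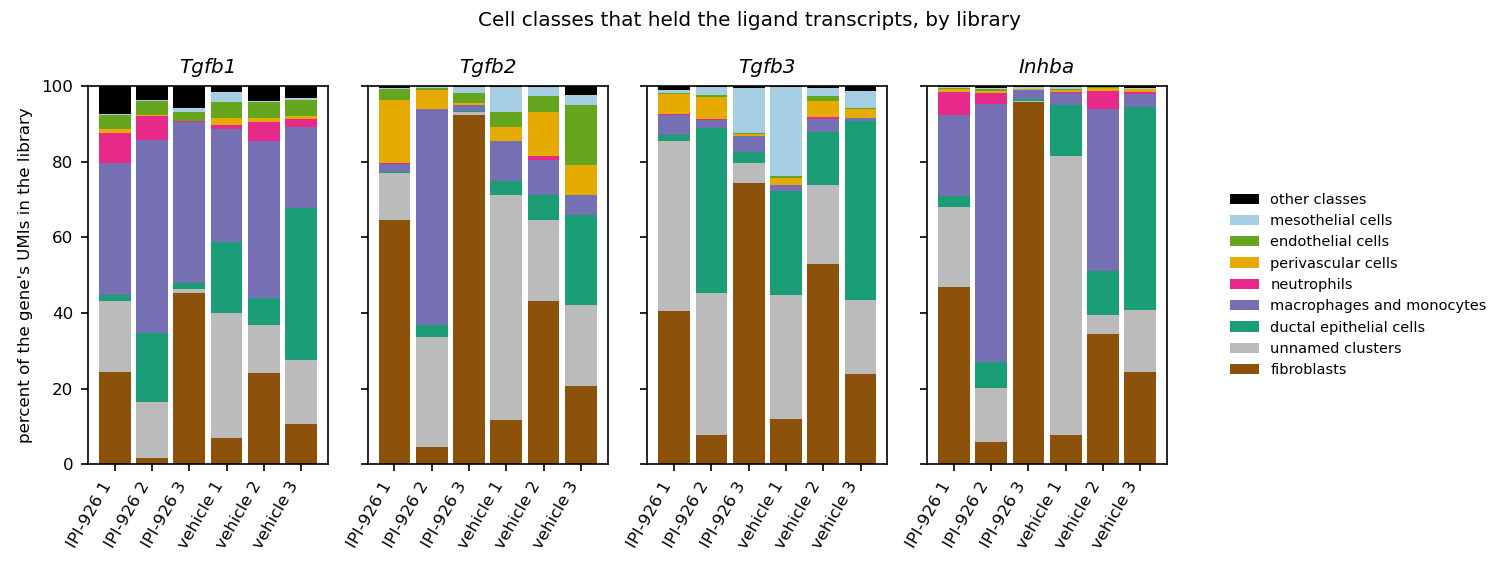
Percent of each ligand gene's UMIs that came from each cell class (colours), 1 bar per library, IPI-926 libraries to the left of vehicle libraries. Fibroblasts held over 90% of Tgfb2 and Inhba UMIs in IPI-926 replicate 3 but 4.57% and 5.79% in IPI-926 replicate 2, where macrophages held 57.1% and 68.1%.

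The start regions of Tgfb1, Tgfb2 and Inhba are shown because the 3 ligand genes share a pathway but differ in their spread over the classes. Tgfb1 was the broadest, while Inhba, with a median of 485 CPM in fibroblasts, still had 48.4 CPM in ductal cells. RefSeq promoter sequences on GRCm38.p6, from 250 bases before to 50 bases after the start, were at hand for 8 of the 10 members. They were searched on both strands for a GLI site (GACCACCCA), a SMAD palindrome (GTCTAGAC), an AP-1 site (TGANTCA), a cyclic AMP element (TGACGTCA), a GC box (GGGCGG) and a TATA box (TATAAA), none of which overlapped another. Capitals mark the matches.
Tgfb1, chr7:25686752-25687051, plus strand: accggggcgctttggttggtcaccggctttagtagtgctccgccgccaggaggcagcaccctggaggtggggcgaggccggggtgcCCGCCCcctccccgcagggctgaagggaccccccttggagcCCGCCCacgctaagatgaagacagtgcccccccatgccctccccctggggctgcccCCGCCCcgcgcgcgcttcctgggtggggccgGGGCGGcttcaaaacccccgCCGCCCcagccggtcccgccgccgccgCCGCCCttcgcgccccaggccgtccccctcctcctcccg
Tgfb2, chr1:186705940-186706239, minus strand: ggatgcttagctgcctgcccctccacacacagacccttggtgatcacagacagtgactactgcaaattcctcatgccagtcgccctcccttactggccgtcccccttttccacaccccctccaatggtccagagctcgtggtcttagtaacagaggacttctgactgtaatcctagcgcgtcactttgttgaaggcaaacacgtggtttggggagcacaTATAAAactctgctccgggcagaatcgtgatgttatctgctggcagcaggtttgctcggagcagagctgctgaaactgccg
Inhba, chr13:16011601-16011900, plus strand: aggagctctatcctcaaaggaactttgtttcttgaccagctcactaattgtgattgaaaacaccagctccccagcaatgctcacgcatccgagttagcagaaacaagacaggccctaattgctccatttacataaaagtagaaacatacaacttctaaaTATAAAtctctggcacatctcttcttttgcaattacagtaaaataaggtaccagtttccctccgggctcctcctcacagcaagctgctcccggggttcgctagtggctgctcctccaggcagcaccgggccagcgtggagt
The Tgfb1 window held 6 GC boxes and no TATA box, while those of Tgfb2 and Inhba held the TATA letters once each and no GC box. These letters began at base 220 of the Tgfb2 window and at base 160, farther from the start, of the Inhba window. Whether either works as a TATA box was not tested. The windows of Ltbp2, led by fibroblasts, and Tgfbi, led by macrophages, held 2 GC boxes each and no TATA box. That of Tgfbr2 held neither, and a link between these letters and the cell classes was not tested. Among all 32851 promoters of the table, 35.7% held a GC box and 13.6% a TATA box. The GLI and SMAD letters were in none of the windows of the 8 members, and in 0.253% and 0.213% of all promoters, so no match here says only that these letters are not in these windows.

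The receiving side was spread differently for each receptor. Tgfbr1, the signalling kinase (ENSMUSG00000007613, chromosome 4, 47353222 to 47414931), was highest in neutrophils, with 73.5, 150.1 and 149 CPM in the IPI-926 tumours and 92.4, 199 and 158 CPM in the vehicle tumours. Within neutrophils the cluster led by Mmp9, Siglecf and Il23a held 207 CPM. Fibroblasts followed with 143, 106 and 28.4 CPM in the IPI-926 tumours and 121, 116 and 175 CPM in the vehicle tumours, and no neighbours in the order of classes were apart in range.

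Tgfbr2, which binds the ligand first (ENSMUSG00000032440, chromosome 9, 116084293 to 116175360), was led by structural cells. Fibroblasts held 264, 402 and 144 CPM in the IPI-926 tumours and 325, 234 and 441 CPM in the vehicle tumours. Endothelial cells held 128, 197 and 263 CPM in the IPI-926 tumours and 230.4, 188 and 248 CPM in the vehicle tumours. These classes and mesothelial cells overlapped, and all mesothelial libraries that entered, from 185 CPM, lay above the highest T and NK library at 150.4 CPM. Perivascular cells, which led for Tgfb2 and Tgfb3, had a median of 69.3 CPM of Tgfbr2 and ranked 8 among the 12 classes.

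Tgfbr3 (ENSMUSG00000029287, chromosome 5, 107106570 to 107289629) was highest in mesothelial cells, the lining of the abdominal cavity and its organs, with 75.3 and 81.6 CPM in IPI-926 replicates 2 and 3 and 142, 127 and 192 CPM in the vehicle tumours. Fibroblasts held 50.6, 85.6 and 85.6 CPM in the IPI-926 tumours and 63.4, 59.5 and 17.5 CPM in the vehicle tumours, which overlapped with mesothelial cells. Endothelial cells held between 30.6 and 59.6 CPM, and the immune classes far less, with a median of 5.26 CPM in T and NK cells and 1.47 CPM in macrophages. The profiles nearest to that of Tgfbr3 were those of the matrix protease Adamts5 (r = 0.935), Pcdh7 (0.924) and Arhgap29 (0.912).

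Of the latency proteins, Ltbp2 (ENSMUSG00000002020, chromosome 12, 84783212 to 84876532) was led by fibroblasts. This matrix protein resembles Ltbp1 but is not known to bind the latent ligand itself. Fibroblasts held 400.2, 289.5 and 117 CPM in the IPI-926 tumours and 421, 619 and 535 CPM in the vehicle tumours. The lowest of these exceeded the highest mesothelial library, 60.6 CPM, but perivascular cells of vehicle replicate 2 also reached 117 CPM. The endocytic collagen receptor Mrc2 (r = 0.915), Mfap5 (0.910), a microfibril protein, and Serpinf1 (0.897), itself a fibroblast marker, had the most similar profiles.

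Ltbp1 (ENSMUSG00000001870, chromosome 17, 75005568 to 75392512), which does tether latent TGF-beta, had no class of its own. Its medians in perivascular cells, fibroblasts, mesothelial cells and ductal cells lay between 31.3 and 36.8 CPM. Among ductal cells a cluster led by Csf2 and Ctla2a held 115 CPM, with 49.6 CPM in IPI-926 replicate 1 and 121, 146 and 116 CPM in the vehicle tumours. The Marco macrophages that carried Tgfb2 also carried Ltbp1, at 125 CPM in IPI-926 replicate 2 and 40.5, 132 and 102 CPM in the vehicle tumours. Single libraries stood far from the rest. The Crabp1 fibroblast cluster of IPI-926 replicate 3 held 242 CPM, and perivascular cells ranged widely, with 36.8 and 154 CPM in IPI-926 replicates 1 and 2 and 28.7, 8.77 and 222 CPM in the vehicle tumours.

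Tgfbi (ENSMUSG00000035493, chromosome 13, 56609523 to 56639562), a secreted adhesion protein named for its induction by TGF-beta, was in this tissue chiefly a transcript of macrophages and monocytes. That class held 957.5, 283 and 859 CPM in the IPI-926 tumours and 347, 846 and 431 CPM in the vehicle tumours, and a median of 72.2% of all Tgfbi UMIs. Its level varied between macrophage clusters. The cluster led by Ly6c2, a monocyte gene, with 2546 of its 2594 cells from IPI-926 replicate 3, held 1420.0 CPM and the one led by Nrg1, Ccl24 and Ccr2 held 988 CPM, while the Marco cluster held 76.0 CPM in IPI-926 replicate 2 and 139, 130.5 and 143 CPM in the vehicle tumours. Fibroblasts had a median of 55.9 CPM. The inhibitory receptor Sirpa (r = 0.871) and the macrophage receptor Csf1r (0.844) were among the 3 genes of nearest profile.

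Within fibroblasts the members split between the 2 subtypes that markers could name among cells outside clusters of 1 library. Inflammatory fibroblasts, whose largest subcluster was led by Sfrp2 and Clec3b, numbered 441 cells and myofibroblastic fibroblasts 338 cells, with 887 cells unnamed. The inflammatory subclusters carried 7 to 10 inflammatory markers, but the 2 myofibroblastic ones only 3 and 4 myofibroblastic markers. The one with 3 carried 2 inflammatory markers as well, so the myofibroblastic name rests on few genes. Values are given for libraries with at least 20 cells of a subtype. Inhba held 1194 and 954 CPM in the myofibroblastic cells of IPI-926 replicates 1 and 2 and 1007 and 258 CPM in those of vehicle replicates 1 and 3. In inflammatory cells it held 23.1 and 14.8 CPM in IPI-926 replicates 1 and 2 and 7.02 and 13.4 CPM in vehicle replicates 1 and 2. Every myofibroblastic value was thus above every inflammatory one. The unnamed cells held 466 and 42.9 CPM in IPI-926 replicates 1 and 3 and 469, 159 and 798 CPM in the vehicle tumours. All of these were also above every inflammatory value, so a high level was not particular to myofibroblastic cells.

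Tgfb1 and Ltbp2 split in the same direction. Tgfb1 held 679 and 269 CPM in myofibroblastic cells of the IPI-926 tumours and 451 and 147 CPM in those of the vehicle tumours, against 15.5 to 53.2 CPM in inflammatory cells of either group. Ltbp2 held 286 to 571 CPM in myofibroblastic cells and 46.4 to 251 CPM in inflammatory cells, and Tgfb3 101 to 181 CPM and 29.8 to 52.9 CPM. In the unnamed cells Tgfb1 held 79.2 to 363 CPM and Ltbp2 344 to 948 CPM, again above every inflammatory value. Tgfbi held 49.5 to 126 CPM in myofibroblastic cells and 2.12 to 32.2 CPM in inflammatory cells. The co-receptor and Ltbp1 were the other way round, and the 2 subtypes overlapped for Tgfb2, Tgfbr1 and Tgfbr2. Tgfbr3 held 137 to 172 CPM in inflammatory cells and 14.6 to 37.0 CPM in myofibroblastic cells, and Ltbp1 held 46.6 to 142 CPM and 6.46 to 38.5 CPM. One of the 2 myofibroblastic subclusters, with 115 of its 178 cells from vehicle replicate 3, carried as many ductal as myofibroblastic markers, 3 of each. An inflammatory subcluster of 51 cells, 45 of them from vehicle replicate 1, carried 5 ductal beside 8 inflammatory markers. The part of ductal RNA in these values was not tested.

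**Figure D3:**
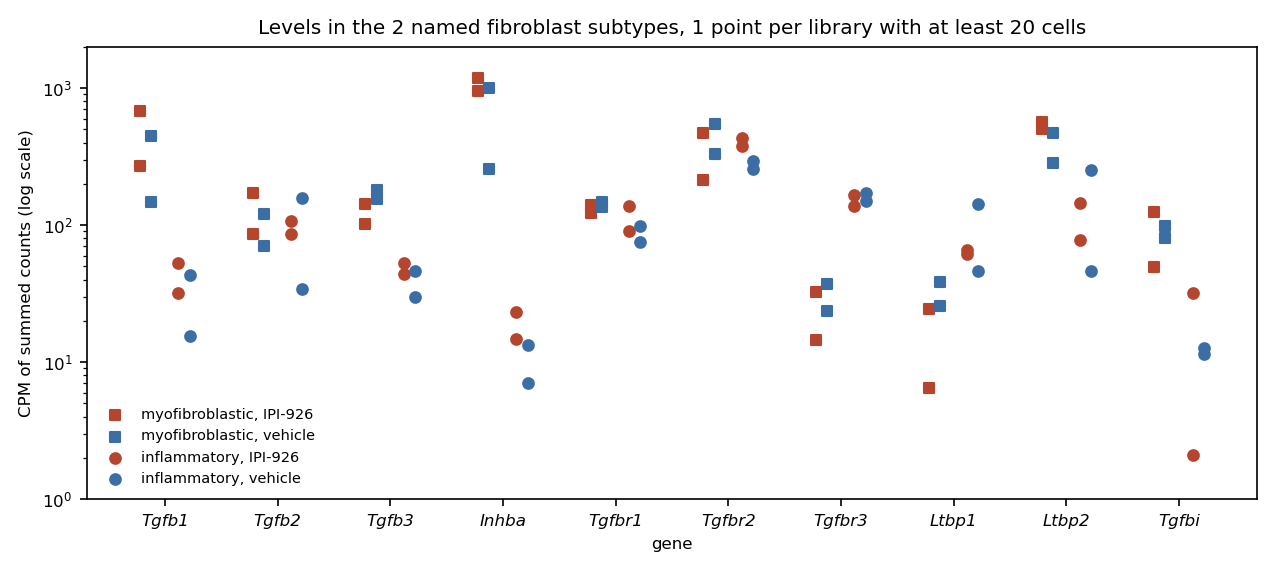
Level of each gene in myofibroblastic (squares) and inflammatory (circles) fibroblasts, 1 point per library with at least 20 cells of the subtype, in CPM on a log axis, IPI-926 in red and vehicle in blue. Inhba, Tgfb1, Tgfb3, Ltbp2 and Tgfbi were higher in every myofibroblastic point than in any inflammatory point, and Tgfbr3 and Ltbp1 lower.

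The design asks which cells respond to Smoothened inhibition. For the 10 members the answer from edgeR's quasi-likelihood test, at a Benjamini-Hochberg adjusted p of 0.05 over all genes of a class, was that none passed in any class. Over the 10 tested classes 75 results for a member in a class were obtained. An unadjusted p under 0.05 was reached by 6 of them, namely Tgfb2 in perivascular cells, Tgfbr3 and Tgfbr2 in mesothelial cells, Tgfb3 in endothelial and in ductal cells and Tgfbr3 in macrophages, and DESeq2 and limma-voom also called 0. The groups of libraries did not overlap in 6 results with higher and 7 with lower levels under IPI-926. Over all genes of these classes, 3.96% of 94989 results had an unadjusted p under 0.05, and 5.65% were higher and 6.09% lower without overlap. From here levels are scaled CPM, which edgeR corrects for composition with TMM factors, and a fold change is IPI-926 over vehicle on the log2 scale.

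In fibroblasts 10 of 10 members were tested, 4 with a positive and 6 with a negative fold change, and the median of -0.15 compares with 0.02 over all genes. Of 12141 genes 0 were called (0%), with 463 at an unadjusted p under 0.05, 30 called by DESeq2 and 0 by limma-voom. The groups were apart for Ltbp2 alone, which was lower under IPI-926, as were 5.23% of all genes. Ltbp2 held 414, 290.3 and 120.2 scaled CPM in the IPI-926 tumours and 418, 628 and 513 scaled CPM in the vehicle tumours. All 3 treated tumours lay lower, by a hair for IPI-926 replicate 1, and the log2 fold change was -0.92 (SE 0.45, adjusted p = 0.90).

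This Ltbp2 difference depended on which cells were counted. Without clusters of 1 library it was -0.53, with 400.2, 289.5 and 373 CPM in the IPI-926 tumours and 421, 619 and 537 CPM in the vehicle tumours, which still did not overlap. With the unnamed cluster of 10 fibroblast markers added to the class, a choice made after seeing the data, the values were 359.7, 99.25 and 118 CPM in the IPI-926 tumours and 104, 576 and 427 CPM in the vehicle tumours, and the groups overlapped.

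Ltbp1 had the opposite sign, with 34.4, 33.7 and 243 scaled CPM in IPI-926 fibroblasts and 64.8, 17.1 and 34.9 scaled CPM in vehicle fibroblasts. Only IPI-926 replicate 3 was high, and the fold change of 1.45 (SE 0.91, adjusted p = 0.90) became -0.14 without that library and -0.20 without clusters of 1 library. The remaining 49 fibroblasts of that library held 30 CPM, within the range of the other tumours. Inhba and Tgfb1 had fold changes of -0.05 (SE 0.80) and -0.27 (SE 0.62) with IPI-926 replicate 3 lowest in both.

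**Figure D4:**
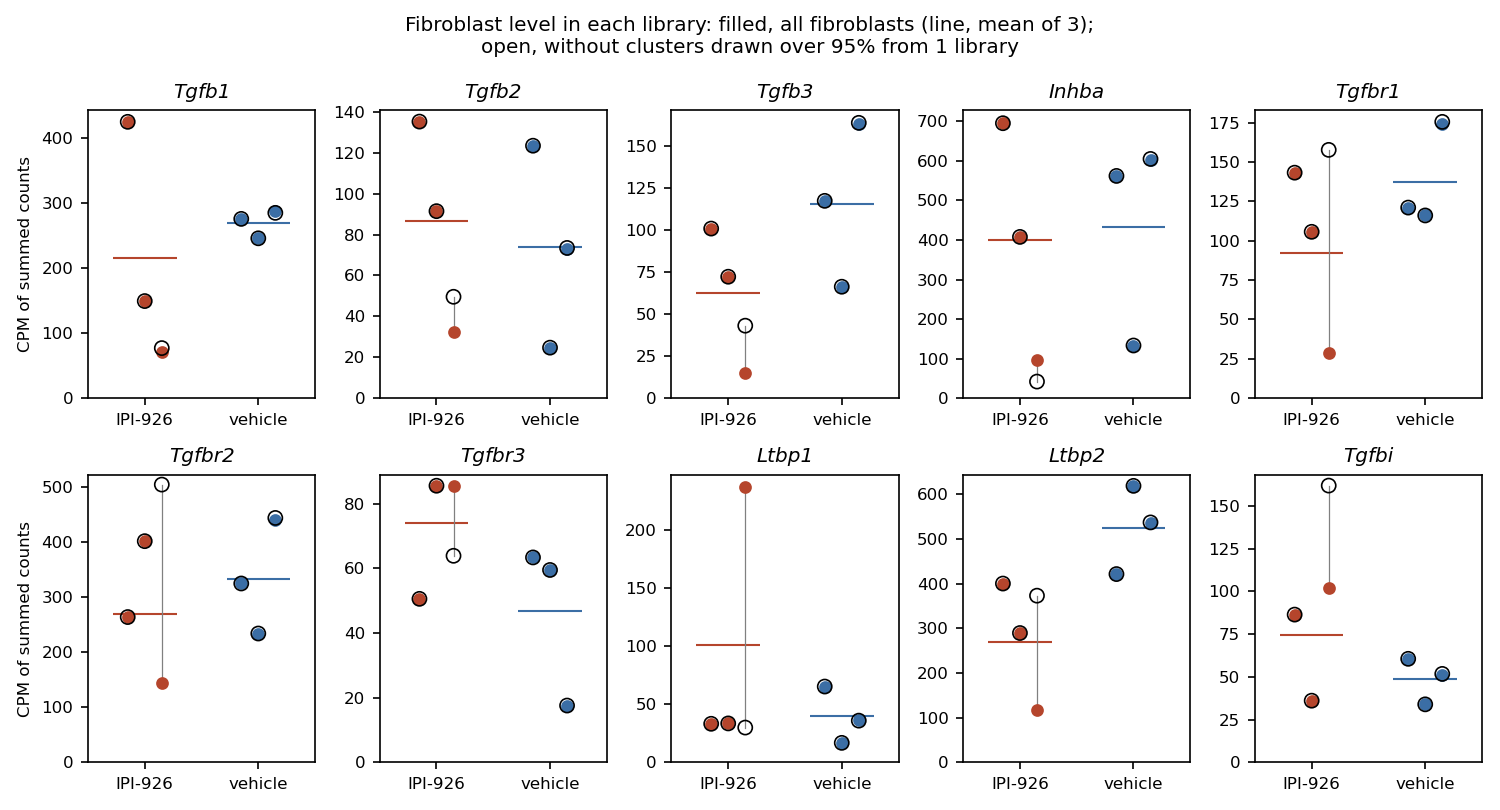
Level of each gene in the fibroblasts of each library in CPM, IPI-926 left (red) and vehicle right (blue), with the mean of 3 as a line. Open circles leave out clusters drawn over 95% from 1 library, which moved IPI-926 replicate 3 from 237 to 30 CPM for Ltbp1 and from 117 to 373 CPM for Ltbp2.

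Perivascular cells, the pericytes and smooth muscle of vessels, had only 2 IPI-926 libraries with 20 cells, of 41 and 33 cells, because replicate 3 held 18. All 10 members were tested, 7 positive and 3 negative. Tgfb2 held 391 and 239 scaled CPM in the IPI-926 tumours and 125, 180.5 and 218 scaled CPM in the vehicle tumours. Both treated tumours were higher, and the log2 fold change was 0.86 (SE 0.32, edgeR adjusted p = 1.0). The IPI-926 library that did not enter held 114 CPM in its 18 cells, below every vehicle library. Tgfb3 was also higher without overlap, at 142 and 137 against 63.4, 134 and 119.7 scaled CPM (log2 fold change 0.40, SE 0.32). Ltbp2 was lower without overlap, at 5.97 and 4.09 scaled CPM in the IPI-926 tumours and 26.3, 123 and 7.85 scaled CPM in the vehicle tumours, where 1 vehicle library stood high. In the 18 cells that did not enter, Tgfb3 held 50.6 CPM, below every vehicle library, and Ltbp2 12.6 CPM from 2 UMIs, above vehicle replicate 3. In this class 8.29% of 7636 genes were higher and 7.36% lower without overlap, none was called (0%), 174 had an unadjusted p under 0.05, DESeq2 called 5 and limma-voom 0.

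Mesothelial cells also had 2 IPI-926 libraries, of 31 and 206 cells, and with 2 against 3 as many as 14.5% of 10627 genes were higher and 14.6% lower without overlap. Of all genes 6 were called (0.0565%), none a member, and 1291 (12.1%) had an unadjusted p under 0.05. The 10 members had 4 positive and 6 negative fold changes, with a median of -0.27 against -0.01 over all genes. Tgfbr3 held 79.4 and 83.5 scaled CPM in the IPI-926 tumours and 138, 125 and 193 scaled CPM in the vehicle tumours. Both treated tumours lay below all vehicle tumours, and on the log2 scale the difference was -0.90 (SE 0.25, edgeR adjusted p = 0.23), the smallest p of any member in any class. By p the gene ranked 329 among all genes of mesothelial cells. The 13 mesothelial cells of IPI-926 replicate 1, too few to enter, held 128 CPM, inside the vehicle range. Tgfb2 was lower without overlap (-0.83, SE 0.37), at 12.1 and 13.3 against 19.1, 36.2 and 18.9 scaled CPM.

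Tgfbr2 had the opposite sign in these cells. It held 237 and 333 scaled CPM in the IPI-926 tumours and 200.1, 183 and 213 scaled CPM in the vehicle tumours (0.52, SE 0.22, edgeR adjusted p = 0.40). Tgfb1 and Inhba were higher without overlap by 0.33 (SE 0.34) and 0.84 (SE 0.39), with 2 of 2 treated tumours above all 3 vehicle tumours. Tgfb1 averaged 30.9 ± 1.16 scaled CPM under IPI-926 (SD, n = 2) and 22.9 ± 9.43 scaled CPM under vehicle (SD, n = 3). Inhba averaged 17.9 ± 7.79 scaled CPM under IPI-926 (SD, n = 2) and 8.58 ± 2.36 scaled CPM under vehicle (SD, n = 3). The 15 fibroblast markers, which mesothelial cells also express, summed to 13200.0 and 11378 CPM in the IPI-926 libraries and 17000.0, 13043 and 20864 CPM in the vehicle libraries. Their part in these differences was not tested.

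In endothelial cells, which line vessels, 8 of 10 members had a negative fold change. The median of -0.18 compares with -0.01 over 10359 genes, of which 0 were called (0%), 415 had an unadjusted p under 0.05, DESeq2 called 17 and limma-voom 0. Tgfb3 was scarce and lower, at 3.19, 2.61 and 2.13 scaled CPM in the IPI-926 tumours and 5.32, 8.75 and 4.70 scaled CPM in the vehicle tumours. All treated tumours lay below all vehicle tumours, as for 5.81% of genes, and the log2 fold change was -1.26 (SE 0.44, edgeR adjusted p = 0.95). It rests on 70 UMIs in all. Tgfb1, the abundant endothelial isoform, held 255, 233 and 162 CPM under IPI-926 and 177, 213 and 179 CPM under vehicle, with wide overlap.

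In ductal epithelial cells, the tumour compartment, 2 ligands were lower without overlap, as were 3.13% of 14687 genes, and none of all genes was called (0%; 393 at an unadjusted p under 0.05, DESeq2 20, limma-voom 0). Tgfb3 held 10.3, 11.4 and 6.35 scaled CPM in the IPI-926 tumours and 16.3, 15.2 and 16.2 scaled CPM in the vehicle tumours (-0.77, SE 0.26, edgeR adjusted p = 1.0). Every treated tumour lay below all vehicle tumours. Tgfb2 was at 2.13, 1.71 and 1.204 against 2.27, 3.24 and 4.17 scaled CPM (-0.97, SE 0.44), and on unscaled CPM the groups overlapped, with up to 2.23 CPM under IPI-926 and from 2.20 CPM under vehicle. The named ductal class held only 66 cells of IPI-926 replicate 1. With the unnamed cluster of 6 ductal markers added, again after seeing the data, Tgfb3 in the IPI-926 tumours held 16.7, 13.0 and 6.32 CPM against 15.6, 15.6 and 15.9 CPM in the vehicle tumours, and the groups overlapped. The same held for Tgfb2, at 1.94, 2.21 and 1.198 CPM in the IPI-926 tumours and 2.14, 4.255 and 4.22 CPM in the vehicle tumours.

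In macrophages and monocytes 9 of 10 members had a positive fold change, with a median of 0.45 against 0.01 over 13181 genes, yet no member's groups were apart. Without clusters of 1 library 8 of 10 were positive and the median was 0.26, with Tgfbi in IPI-926 replicate 3 at 530.0 in place of 859 CPM and Inhba at 21.4 in place of 8.61 CPM. Leaving out any one IPI-926 library gave 7 of 10. Of these genes 0 were called (0%), with 224 at an unadjusted p under 0.05, 6 called by DESeq2 and 0 by limma-voom. Tgfbr3 was at 0.902, 5.47 and 5.28 scaled CPM in the IPI-926 tumours and 1.34, 0.835 and 1.60 scaled CPM in the vehicle tumours (1.65, SE 0.69, edgeR adjusted p = 1.0). The fibroblast markers summed to 88.4, 100.0 and 1071 CPM in these IPI-926 macrophages and 150, 208 and 71.7 CPM in the vehicle ones. Replicate 3 was high for both and replicate 2 for Tgfbr3 alone. In the Marco cluster Tgfbr3 held 9.997 CPM in the 492 cells of IPI-926 replicate 2 and 1.18, 7.91 and 10.7 CPM in the vehicle tumours. The part of this cluster or of fibroblast RNA in the Tgfbr3 difference was not tested. Inhba held 164, 293 and 8.62 scaled CPM under IPI-926 and 43.9, 109 and 34.8 scaled CPM under vehicle (1.30, SE 1.08), where the treated tumours spanned the vehicle range. Tgfb1 differed little, by 0.12 (SE 0.21).

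**Figure D5:**
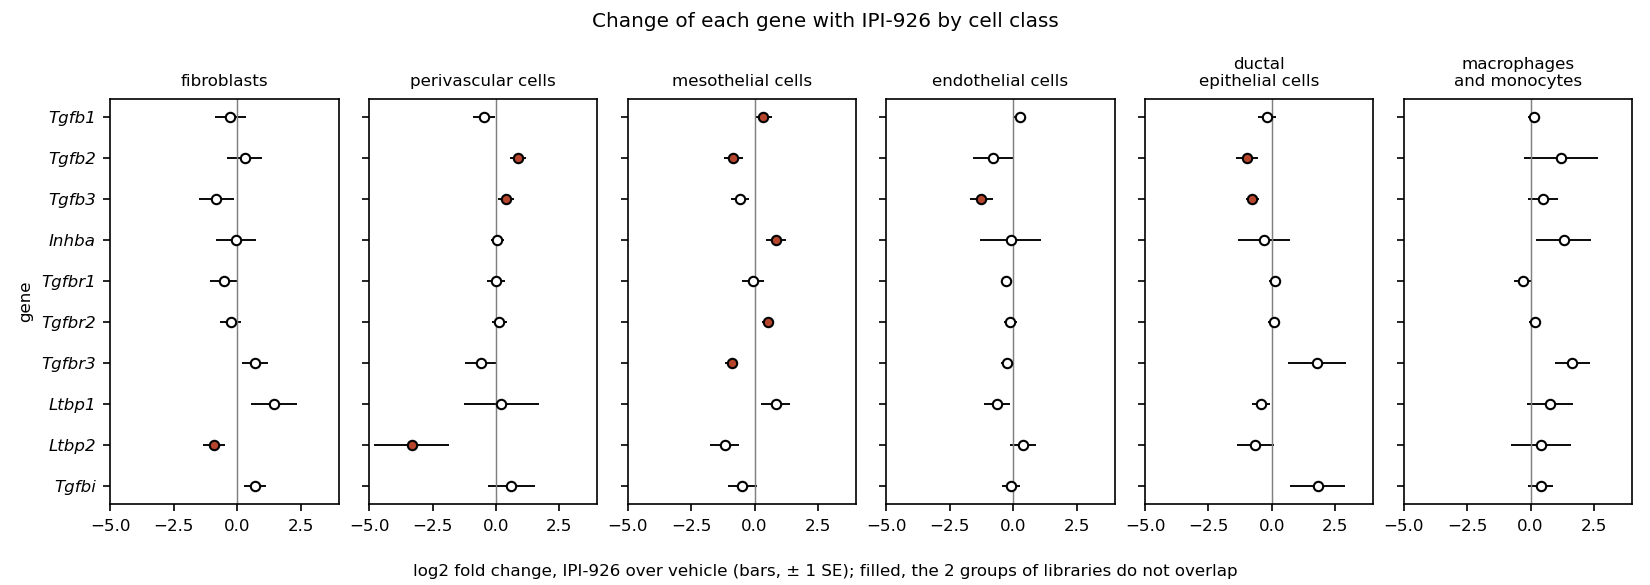
Log2 fold change of each gene, IPI-926 over vehicle, with 1 SE to each side, in the 6 classes where all 10 were tested. Filled points mark the results in which the 2 groups of libraries did not overlap, and none had an adjusted p under 0.05.

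In neutrophils 5 members were tested and Tgfb1 was higher without overlap, as were 4.58% of 8423 genes. It held 273, 248 and 208 scaled CPM in the IPI-926 tumours and 132.5, 184 and 189 scaled CPM in the vehicle tumours (0.54, SE 0.29, adjusted p = 0.87). On the unscaled values the separation was closer, with 233, 239.9 and 196 CPM in IPI-926 neutrophils and 129.9, 216 and 195 CPM in vehicle neutrophils, which overlapped. In this class 1 gene was called (0.0119%). Dendritic cells had 5 members tested and none apart, with 0 of 7998 genes called (0%; 169 at an unadjusted p under 0.05, DESeq2 0, limma-voom 0). T and NK cells had 3 tested, Tgfb1, Tgfbr1 and Tgfbr2, and B cells had 2, Tgfb1 and Tgfbr2. All 5 of these fold changes were negative, from -0.11 to -0.53, and smaller than 2 SE, with 0.0138% and 0.0745% of all genes called in T and NK cells and in B cells.

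Over all kept cells summed, where fewer cells of a type and less RNA per cell cannot be told apart, none of the 10 members was apart between groups and none of 17871 genes was called (0%; 685 at an unadjusted p under 0.05, DESeq2 125, limma-voom 0). Tgfb3 came nearest, at 21.9, 12.1 and 13.3 scaled CPM in the IPI-926 tumours and 22.4, 21.5 and 23.5 scaled CPM in the vehicle tumours (-0.51, SE 0.28). Ltbp1 was at 31.6, 35.4 and 167 scaled CPM in the IPI-926 tumours and 35.9, 20.1 and 51.5 scaled CPM in the vehicle tumours, again high only in IPI-926 replicate 3.

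Whether a member responded differently in fibroblasts than in another class was tested with limma on the difference between the classes within each library. For fibroblasts against ductal cells, macrophages, endothelial cells and mesothelial cells 0 genes were called (0% of 11586, 11099, 9929 and 10192 genes), with 363, 346, 359 and 762 at an unadjusted p under 0.05, and edgeR with an interaction term called 0 as well. The member with the smallest p was Tgfb1 in fibroblasts minus mesothelial cells, at -1.90 (SE 0.77, limma adjusted p = 0.66, 2 IPI-926 and 3 vehicle libraries).

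The rest of the pathway showed no gene past the threshold in the 5 classes examined either. Among the latency and activation partners, Itgb5, a subunit of an integrin that frees latent TGF-beta, held 169, 255 and 123 scaled CPM in IPI-926 fibroblasts and 299, 275 and 717 scaled CPM in vehicle fibroblasts (-1.25, SE 0.47, adjusted p = 0.90). In mesothelial cells Thbs1, a secreted activator of latent TGF-beta, held 385 and 344 scaled CPM under IPI-926 and 171, 204 and 193 scaled CPM under vehicle (0.95, SE 0.20). The list of 17 had 16 genes tested in fibroblasts, 4 positive and 12 negative, with a median of -0.24 against 0.02 over all genes.

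Among transducers and feedback genes, 13 of 13 had a negative fold change in endothelial cells, with a median of -0.25 against -0.01 over all genes. None of the 13 passed the threshold, and the share of all genes with a negative fold change was not counted. The feedback inhibitor Pmepa1 held 334, 278 and 198 scaled CPM in IPI-926 endothelial cells and 391, 403 and 535 scaled CPM in vehicle endothelial cells (-0.71, SE 0.23, edgeR adjusted p = 0.95). The ubiquitin ligase Smurf2 held 90.3, 61.9 and 52.0 against 91.8, 91.4 and 133 scaled CPM (-0.63, SE 0.25, edgeR adjusted p = 0.95). The groups were apart for both genes, if narrowly for Smurf2, and 5.81% of all genes were lower without overlap in this class. In mesothelial cells Pmepa1 was apart in the other direction, at 253 and 254 scaled CPM under IPI-926 and 165, 128 and 192 scaled CPM under vehicle (0.64, SE 0.23). The decoy receptor Bambi and the collagen-binding proteoglycan Fmod were lower there without overlap, with log2 fold changes of -2.28 (SE 0.66) and -2.61 (SE 0.55). In mesothelial cells, with 2 IPI-926 libraries, 14.5% of all genes were higher and 14.6% lower without overlap. Of the 8 tested co-receptors, decoys and binding proteins 7 had a negative fold change there.

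Of 19 response genes tested in fibroblasts 11 were positive and 8 negative. Cthrc1, a secreted protein of activated fibroblasts, held 369.7, 343 and 1294 scaled CPM under IPI-926 and 236, 229 and 77.4 scaled CPM under vehicle (1.89, SE 0.68), and Thbs2 502, 723 and 895 against 398, 138 and 414 scaled CPM (1.16, SE 0.46). Both were highest in IPI-926 replicate 3, whose Crabp1 cluster they lead, and both were also above every vehicle tumour in IPI-926 replicates 1 and 2, as 4.18% of all genes were higher without overlap. On the activin side, the receptor Acvr2a held 11.5, 6.73 and 4.41 scaled CPM in IPI-926 fibroblasts and 14.2, 13.1 and 17.7 scaled CPM in vehicle fibroblasts (-0.99, SE 0.41, adjusted p = 0.90). In macrophages the receptor Acvrl1 was the co-receptor list's one gene apart, at 18.04, 20.5 and 40.3 scaled CPM under IPI-926 and 12.01, 12.7 and 14.4 scaled CPM under vehicle (1.02, SE 0.33), where 2.94% of all genes were higher without overlap.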

How the data were processed

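The authors deposited UMI counts of each gene in each barcode, not normalized. The file headers give cellranger 6.1.2, whereas Cell Ranger 2.1.1 with mm10 stands in the submitters' processing notes. Of 62905 barcodes, 54911 had at least 500 UMIs, at least 300 genes and no more than 20% mitochondrial counts, and 5114 of these were removed as likely doublets. Cells were clustered with Leiden (leidenalg 0.10.2, resolution 1, 30 components of 2000 variable genes) without the 10 members. A cluster took a class with at least 3 detected markers of it, unless another class led its top genes or its UMI count was low. The median of UMIs per kept cell was 2608 to 3971 in the IPI-926 libraries and 4340 to 7524.5 in the vehicle libraries.

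Counts were summed per library and class with at least 20 cells and tested with edgeR 4.0.16 (TMM, filterByExpr, robust quasi-likelihood), without pairing. DESeq2, limma-voom, other scalings, filters and cell sets and leaving out each library were alternatives. Scripts were tested on simulated data. Members, lists and markers were chosen with earlier results of these data known. Named genes were all members and, per list and class, up to 2 a direction whose groups did not overlap with a mean of at least 10 CPM. The upper limit given for a class without a UMI covers counting error only. SEs of the edgeR and limma fits and SDs take in the spread between libraries. Each library is 1 tumour, and p-values measure the spread between these tumours. One engineered allele of the mice is not reported here.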

Additional observations from a re-analysis of the deposited data

Results flagged for a closer look

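In 4 pairs of cell classes a member differed in opposite directions, each time with no overlap between the IPI-926 and vehicle libraries in either class. All 4 set perivascular cells, with 2 IPI-926 libraries, against another class, and the difference of response itself was not tested. Tgfb2 was higher under IPI-926 in perivascular cells and lower in mesothelial and in ductal cells, so its log2 fold changes differed by 1.69 and 1.83. Tgfb3 was higher under IPI-926 in perivascular cells and lower in endothelial and in ductal cells, with differences of 1.66 and 1.17. The ductal separations were lost for both genes with the unnamed cluster of 6 ductal markers added, and that of Tgfb2 also on unscaled CPM. The 18 perivascular cells of IPI-926 replicate 3, too few to enter, held 114 CPM of Tgfb2 and 50.6 CPM of Tgfb3, below every vehicle library. None of the single changes had an adjusted p under 0.05 in the edgeR test. Of all genes 8.29% were higher without overlap in perivascular cells. Lower without overlap were 14.6% in mesothelial, 5.81% in endothelial and 3.13% in ductal cells. Pairs of opposite direction were not counted over all genes.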

How the results depend on the processing

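No member was called in any class under any alternative. For 15 results for a member in a class (those without overlap or with an unadjusted p under 0.05, and Ltbp1 in fibroblasts), 238 of 240 alternative values kept their sign. The exceptions were both Ltbp1 in fibroblasts, which ran from -0.14 without IPI-926 replicate 3 to 2.03 without vehicle replicate 1 and stood at -0.20 without clusters of 1 library, because the high cells are of that library. All results but that of Ltbp1 were picked for separation or a low p in these same libraries, so their signs could hardly reverse. The count of kept signs is therefore no measure of how firm they are. Over all genes the number called moved more. DESeq2 called 30 in fibroblasts, 5 in perivascular, 172 in mesothelial, 17 in endothelial and 20 in ductal cells, 6 in macrophages and monocytes, 16 in neutrophils, 2 in T and NK cells and 125 in all kept cells. Limma-voom called 40 in mesothelial cells, 0 in neutrophils and in T and NK cells and 1 in B cells. Without a filter on low counts 34 were called in perivascular, 347 in mesothelial, 6 in endothelial and 16 in dendritic cells, 47 in neutrophils, 28 in T and NK cells and 21 in B cells. In neutrophils DESeq2 size factors and doublets kept each gave 0 and leaving out clusters of 1 library gave 2. Equal cells per library gave 1 in mesothelial, 2 in T and NK and 0 in B cells, the members kept for clustering gave 1 in perivascular and 2 in mesothelial cells, and the stricter cell filter gave 1 in B cells. The cause of these shifts was not tested. Leaving out each library in turn gave 0 to 3 in perivascular, 0 to 135 in mesothelial, 0 to 4 in endothelial and 0 to 1 in dendritic cells, 0 to 1 in macrophages and monocytes, 0 to 2 in neutrophils, 0 to 5 in T and NK cells and 1 to 15 in B cells. Of the 10 members 9 kept their highest class when each cell was weighted equally; for Tgfb1 it became macrophages and monocytes in place of fibroblasts. No paired analysis was possible because the labels give no pairing.

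Depth limits the scarce combinations: Tgfb3 in endothelial cells rests on 70 UMIs and Inhba in mesothelial cells on 182. Perivascular and mesothelial comparisons have 2 IPI-926 libraries, so groups separate often by construction. IPI-926 replicate 3 supplies most treated fibroblasts.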

Other observations

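The macrophages led by Alox15, Marco and Fcna held both Tgfb2 (113 CPM) and Ltbp1, and under 20 cells of that cluster were found in IPI-926 replicates 1 and 3. A second cluster with Cd5l, Fcna, Alox15 and Marco among its leading genes had 77 cells in IPI-926 replicate 3, where Tgfb2 and Ltbp1 each held 2.04 CPM. In that second cluster Tgfb2 held 34.5 CPM in IPI-926 replicate 2 and 18.6 CPM in vehicle replicate 1, and Ltbp1 held 45.98 CPM in IPI-926 replicate 2 and 40.7 CPM in vehicle replicate 1. Inhba in ductal cells was concentrated in the cluster led by Csf2 and Ctla2a, at 248 CPM in IPI-926 replicate 1 and 315, 645 and 180.3 CPM in the vehicle tumours. That cluster had 37 cells in IPI-926 replicate 1, under 20 in the other 2 IPI-926 libraries, and 262, 23 and 874 cells in the vehicle tumours.

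The unnamed cluster led by Cxcl13, Pappa and Calca entered no class in the main comparisons. It held Inhba at 936, 142 and 41.5 CPM in the IPI-926 tumours and 744, 18.2 and 22.0 CPM in the vehicle tumours, and Tgfb2 at 84.1, 101.5 and 26.4 CPM in the IPI-926 tumours and 114, 57.6 and 69.3 CPM in the vehicle tumours.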
